A study of Homo sapiens with 688 samples.

Results

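Untreated U87 cells were compared with untreated LNCaP cells in PLATE-Seq libraries, in which the mRNA of each well is captured on an oligo(dT) surface, reverse transcribed with a well-specific barcode and sequenced from its 3′ end in a pool. U87 is a human cell line from a glioblastoma, a malignant glial brain tumour, and LNCaP is a human cell line from a prostate adenocarcinoma. The comparison took 12 of the 688 samples of the series. They were the 8 untreated U87 wells, numbered 52 and 53 on each of the plates PS1A, PS1B, PS4A and PS4B, and the 4 LNCaP wells with the same numbers on the plates A1 and A2. All LNCaP wells of the series, 96 on each of these plates, were untreated, and the others served as support. A second set of wells, numbered 40 and 41, held 8 U87 wells that received the vehicle DMSO and 4 untreated LNCaP wells.

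U87 cells were grown in EMEM with fetal bovine serum, and the lysates of a pair of culture wells were pooled for each capture well. LNCaP cells were grown in RPMI1640 with fetal bovine serum, and each lysate was divided between the plates A1 and A2, of which one was purified on columns and beads and the other on the automated capture plate, so these plates repeat the purification and not the culture, and a test over the 4 LNCaP wells treats wells of the same lysate as separate samples. Which LNCaP plate had which purification is not given by the labels. No plate held both lines, and the lines also differed in culture plate format, plating density, time in culture before lysis and sequencer. Cell line, medium, culture time and format, plate, purification and sequencing run therefore cannot be told apart. The labels do not say that the wells were seeded from separate cultures, so the p-values below measure the spread between wells only. Each well is a bulk culture, in which fewer cells that express a gene and less RNA per cell cannot be told apart.

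Prostate luminal cells respond to androgen, a steroid hormone that turns on genes for secreted proteases such as KLK3, the prostate-specific antigen. LNCaP cells keep this response and an epithelial character, with adherens and tight junctions. Glioblastoma cells in serum culture are known for a mesenchymal state, in which vimentin filaments, caveolae, integrins and secreted matrix and protease genes are prominent and astrocyte genes are often low.

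The U87 wells held between 588619 and 1035594 counts and the LNCaP wells 369784 and 371944 on plate A1 and 32688 and 185532 on plate A2. Well 52 of plate A2 was the shallow one, and 1 count there equals 30.59 CPM, the unit below, in which the counts of every well are scaled to a total of 1000000. The tables shared 23710 gene symbols. Over the 7588 of them that were tested, Spearman correlations between wells, given as a description, ran from 0.783 to 0.931 within U87, from 0.691 to 0.907 within LNCaP, from 0.842 to 0.907 within LNCaP without that well, and from 0.284 to 0.471 between the lines. Within U87, wells of 1 plate correlated at 0.896 to 0.931 and wells of different plates at 0.783 to 0.892. A count of 0 over the 8 U87 wells allowed a level of up to 0.455 CPM, and over the 4 LNCaP wells up to 3.13 CPM. These limits cover counting error only, since PCR copies are not independent molecules.

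The lines differed in expression of many genes. Between them, 3412 of 7588 genes passed the test (edgeR quasi-likelihood test, Benjamini-Hochberg adjusted p under 0.05), and 3904 had an unadjusted p under 0.05. Of these 3412 genes, 2054 were higher in U87 (27.1% of those tested) and 1358 were higher in LNCaP (17.9%). With the counts of plates A1 and A2 summed for each well number, so that each LNCaP lysate counted once (n = 2), 3491 genes were called, 2062 higher in U87 and 1429 in LNCaP, and among the named genes below KRT5 (adjusted p = 0.0756) and MAGED1 (adjusted p = 0.0685) lost the call. With a difference of at least 4-fold as a further condition, 1310 genes were higher in U87 (17.3%) and 521 in LNCaP (6.87%). The wells of the lines did not overlap, with every U87 well above every LNCaP well, for 1320 genes (17.4%), and in the opposite order for 1002 genes (13.2%). The median log2 difference (U87 minus LNCaP) over all tested genes was 0.233, and 60.2% of the calls were higher in U87. This balance depended on the scaling. With RLE size factors, which use median ratios in place of the trimmed means of TMM, the median was 0.425 and 2378 genes were higher in U87 and 1122 in LNCaP, and with library totals alone the median was 0.063 and the counts were 1763 and 1589.

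**Figure D1:**
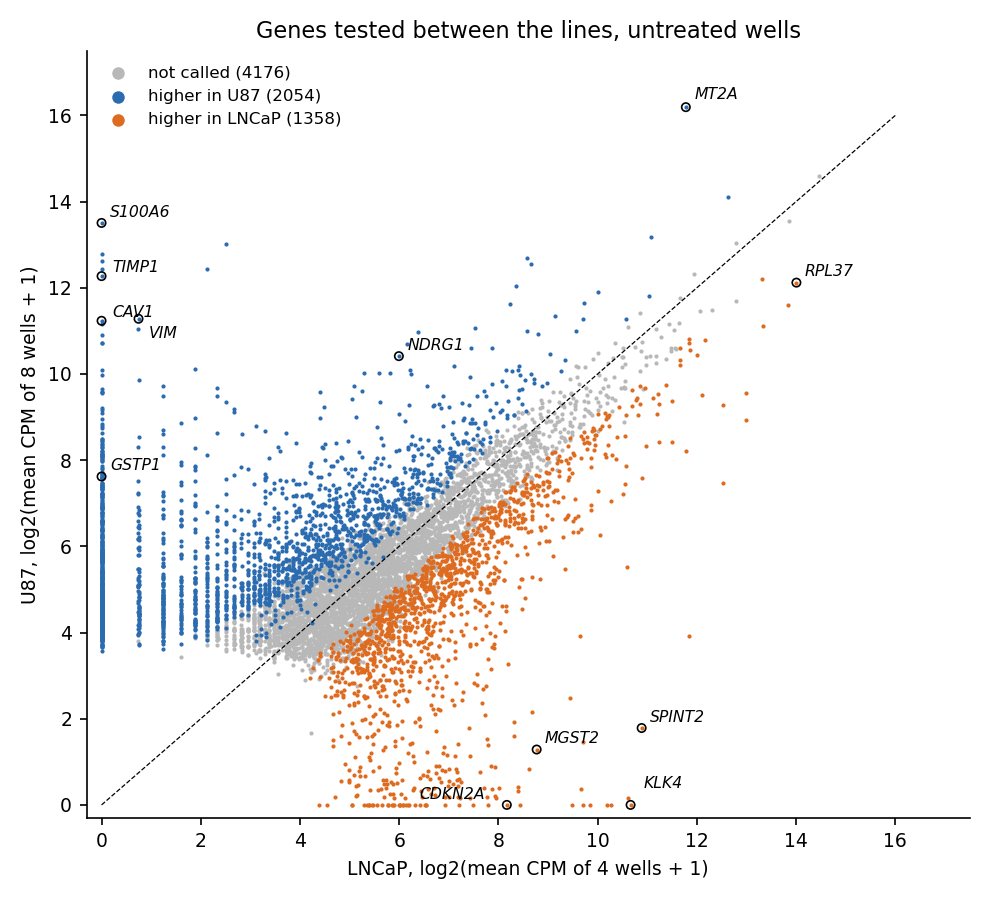
Mean expression of the 7588 tested genes in LNCaP (x axis, 4 wells) and U87 (y axis, 8 wells), as log2(mean CPM + 1), with the 2054 genes called higher in U87 in blue, the 1358 called higher in LNCaP in orange and the rest in grey. The dashed line marks equal levels, and the columns of points at the left and the row at the bottom are genes with few or no counts in 1 of the lines.

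The 4 markers of the lines separated the wells as labelled. KLK3 (chr19:51358171-51364020, plus strand, hg19) had 500.3 and 505.5 CPM in the wells of plate A1 and 1958 and 1719 CPM in those of plate A2, and 0 counts in the 8 U87 wells. All 4 LNCaP wells lay above all U87 wells. By its mean CPM over wells, LNCaP was at least 2570-fold higher, taking 3 counts over the U87 wells as the limit. This mean gives the shallow well of plate A2 the same weight as each deeper well, here and in the folds below. With the wells of plate A1 alone the fold for KLK3 would be lower. TMPRSS2 (chr21:42836227-42903043, minus strand), an androgen-regulated membrane protease, had 11, 10, 0 and 11 counts in the LNCaP wells and 0 in U87, which is at least 63.7-fold higher in LNCaP. TMPRSS2 was too low for the filter on low counts, and without the filter its log2 difference was -7.12 (edgeR, adjusted p = 3.48e-13). In wells 40 and 41 it was tested, with -7.35 (adjusted p = 4.37e-07). Its only LNCaP well at 0 was the shallow one, where a level of up to 91.8 CPM would go unseen.

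VIM (chr10:17270240-17279592, plus strand), which encodes the intermediate filament vimentin, had 1 count in the 4 LNCaP wells, in well 52 of plate A1, and 817.9, 2696 and 3927 CPM as the lowest, median and highest of the U87 wells. The ratio of the summed counts was 2290, with an exact 95% interval for counting error from 412 to 90600. CAV1 (chr7:116165048-116201233, plus strand), the scaffold protein of caveolae, had 0 counts in LNCaP and 1748, 2407 and 2972 CPM as the lowest, median and highest in U87, at least 770-fold more. No LNCaP well reached any U87 well for either gene. All LNCaP wells together, with 92741570 counts, held 225 counts of VIM and 2 of CAV1, against 82687 of KLK3 and 3374 of TMPRSS2.

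**Figure D2:**
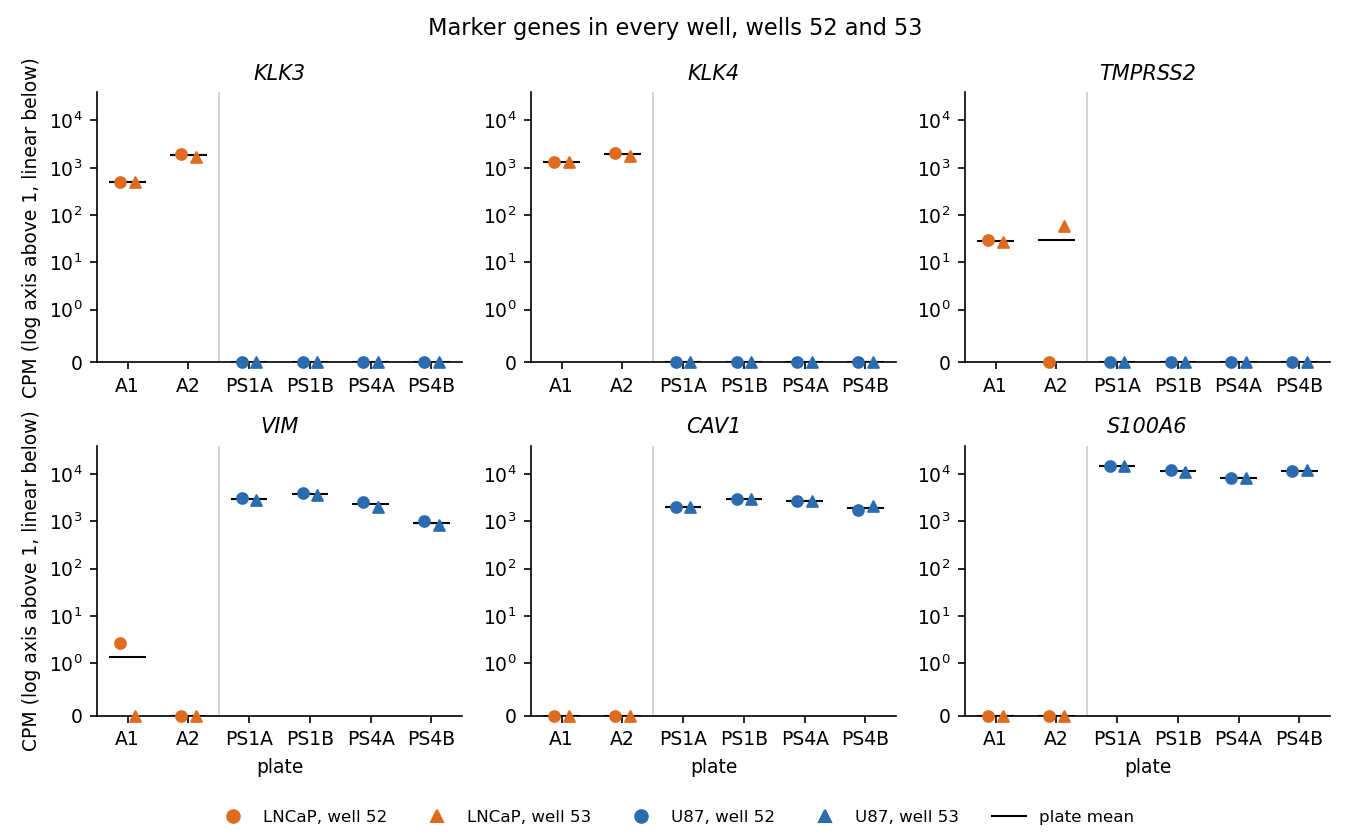
CPM of 6 genes in each of the 12 wells (symlog y axis, logarithmic above 1 CPM and linear below), by plate, with LNCaP in orange, U87 in blue, circles for well 52, triangles for well 53 and a black bar at the plate mean. KLK3, KLK4 and TMPRSS2 were at 0 in all U87 wells, CAV1 and S100A6 were at 0 in all LNCaP wells, and VIM had 2.704 CPM in 1 LNCaP well.

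Most tested androgen-responsive genes were higher in LNCaP. Of 29 listed genes, 28 were in the tables and 17 passed the filter, of which 12 were higher in LNCaP, 2 were higher in U87 and 3 did not pass the test, with a median log2 difference of -2.50. The filter keeps a gene that is well counted in either line, so a gene counted in only 1 of them had to differ, and the counts given for this and the other lists are descriptions. 

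KLK4, a kallikrein protease encoded near KLK3, had 1322 and 1309 CPM on plate A1 and 2080 and 1773 CPM on plate A2, with 0 counts in U87. LNCaP was at least 3570-fold higher, the largest such bound among the genes named here that were higher in LNCaP. KLK2, the third of these neighbouring proteases, had 86 to 397.7 CPM in LNCaP and 1 count in U87, a ratio of 927.9 with an interval from 163.7 to 36900. Reads that fall in stretches shared by KLK2 and KLK3 were not counted, since only uniquely mapped reads were kept.

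The promoter of KLK3 is shown because it is the classical androgen-responsive promoter and the gene separated the lines in every well. The 250 bases before its RefSeq start, at chr19:51357921-51358170 on the plus strand of GRCh37 (hg19), read 5′ to 3′ with the hexamer AGAACA, the core of androgen response elements, in capitals.

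KLK3: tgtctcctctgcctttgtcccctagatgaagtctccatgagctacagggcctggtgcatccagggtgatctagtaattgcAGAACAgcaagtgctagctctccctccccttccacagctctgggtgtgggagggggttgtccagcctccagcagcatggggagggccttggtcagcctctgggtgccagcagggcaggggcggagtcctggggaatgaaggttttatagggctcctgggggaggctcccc

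The hexamer occurred once in this window, 170 bases before the start. AGAACA was found on either strand in 4350 of 35116 RefSeq windows of this length (12.4%), so a match alone marks no gene, and it is a match of letters rather than a measured binding site. The window of KLK2 held 0 such matches, but at the corresponding place stood a 15-base stretch that is shown beside that of KLK3 because it differs from it at 1 position, A1G, counted from 1 at the 5′ end of the KLK3 stretch.

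KLK3: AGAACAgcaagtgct

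KLK2: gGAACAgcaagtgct

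The stretches lie at chr19:51358001-51358015 and chr19:51376519-51376533, both on the plus strand, and the capitals mark the hexamer and the bases of KLK2 that match it.

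Other androgen-responsive genes followed with smaller differences. FKBP5, a co-chaperone of steroid receptors, had -3.47 ± 0.43 (adjusted p = 2.43e-07). PMEPA1 (-0.62, adjusted p = 0.102), CAMKK2 (-0.07, adjusted p = 0.913) and ACSL3 (-0.78, adjusted p = 0.0506) did not pass. NDRG1, a stress and differentiation gene that hypoxia also raises, went the other way, with 78.42, 75.28, 0 and 97.02 CPM in LNCaP and 919.1, 1429 and 1660 CPM as the lowest, median and highest in U87 (log2 difference 4.35 ± 0.43, adjusted p = 4.16e-09). ELL2, an elongation factor, was also higher in U87 (2.18 ± 0.46, adjusted p = 0.000327), and its wells overlapped.

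Genes of the prostate luminal lineage were likewise higher in LNCaP, 10 of the 15 tested from 24 in the tables, with 3 higher in U87, 2 not called and a median log2 difference of -3.71. SPDEF, an ETS factor of secretory epithelia, had 597.6 and 621.1 CPM on plate A1, 1101 and 1331 CPM on plate A2 and 0 counts in U87, at least 2010-fold less. HPN, the membrane protease hepsin, had 538.2, 467.8, 1285 and 1040 CPM in the same order and FOLH1, the prostate-specific membrane antigen, 392.1, 368.3, 305.9 and 323.4 CPM, both with 0 counts in U87 and LNCaP at least 1830-fold and 764-fold higher. HOXB13, the homeobox factor of the caudal prostate, had 97.35, 126.4, 30.59 and 199.4 CPM in LNCaP and 3 counts in U87, a ratio of 277 (interval 92.6 to 1360).

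STEAP1, a cell-surface antigen of the prostate, was called without being confined to LNCaP. Its LNCaP wells had 381.3, 454.4, 520.1 and 447.4 CPM and the U87 wells 28, 69.78 and 127.7 CPM as the lowest, median and highest (log2 difference -2.53 ± 0.33, adjusted p = 4.33e-07). CREB3L1, a stress sensor of the secretory pathway, had 0 counts in LNCaP and 128.8, 299 and 679.6 CPM as the lowest, median and highest in U87 (adjusted p = 8.75e-08). RAB3B, a vesicle GTPase, was higher in U87 (1.35 ± 0.3, adjusted p = 0.000673), with no overlap. ACPP, the prostatic acid phosphatase, had no more than 10.78 CPM in any LNCaP well and 5.432 to 35.2 CPM in U87 (1.79 ± 0.62, adjusted p = 0.0206), and it lost its call in 5 of 26 alternative settings, among them the one without well 53 of plate A1 (adjusted p = 0.0846).

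Epithelial junction and polarity genes were higher in LNCaP throughout the genes that could be tested. All 17 tested genes of the 37 in the tables were higher in LNCaP, with a median log2 difference of -7.64, or -7.29 with the gene at 0 in U87 set to its bound, and the other 20 were too low for the filter. SPINT2, an inhibitor of membrane serine proteases, had 1331, 1460, 2141 and 2636 CPM in LNCaP and 0, 1.681 and 7.427 CPM as the lowest, median and highest in U87 (-9.22 ± 0.44, adjusted p = 2.09e-14). CLDN7, a claudin of tight junctions, had 567.9, 623.7, 1346 and 786.9 CPM in LNCaP and no more than 3.398 CPM in a U87 well. RAB25, a GTPase of apical recycling, had 343.4, 260.8, 458.9 and 285.7 CPM in LNCaP and 2 counts in U87.

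CDH1, the adherens junction cadherin, had 243.4 to 274.9 CPM in LNCaP and 2 counts in U87, a ratio of 859 (interval 235 to 7130). The summed level of the 37 genes was 3920, 4030, 6120 and 5940 CPM in the LNCaP wells, in the order given above, and in the U87 wells the lowest was 53.2 CPM and the median 91. Keratins did not divide the same way. KRT18, a keratin of simple epithelia, was higher in LNCaP with 221.8, 153.2, 275.3 and 231.8 CPM against 0, 1.011 and 5.097 CPM as the lowest, median and highest in U87 (-6.85 ± 0.48, adjusted p = 1.25e-11).

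KRT7 and KRT5 had 0 counts in the LNCaP wells. KRT7, a keratin of ducts, had 4.541, 27.01 and 38 CPM as the lowest, median and highest in U87 (adjusted p = 0.000149), at least 8.39-fold more. KRT5, a keratin of basal cells, had 0, 11.4 and 25.77 CPM (adjusted p = 0.0476), and with the well number as a block its adjusted p was 0.0733. It also lost the call when any single LNCaP well was left out, with adjusted p from 0.0527 to 0.111. Of 17 keratin genes 4 were tested, with 2 higher in U87, 1 in LNCaP and KRT10 not called (0.93, adjusted p = 0.0862). KRT8, the partner of KRT18, had 25 counts in LNCaP and 6 in U87, too few to test.

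Mesenchymal state genes were higher in U87. Of the 34 listed genes, 26 were tested, 24 were higher in U87, 0 were higher in LNCaP and 2, CALD1 (-0.71, adjusted p = 0.146) and TAGLN (1.7, adjusted p = 0.0645), did not pass. The median log2 difference was 5.96, and 4.01 with the 11 genes at 0 in LNCaP set to their bounds. The summed level of the list was 1210 and 1720 CPM on plate A1 and 826 and 1790 CPM on plate A2, against 24800 to 30900 CPM in the U87 wells.

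S100A6, a small calcium-binding protein (chr1:153507075-153508720, minus strand), had the largest bound toward U87 among the named genes. It had 8309, 11770 and 14820 CPM as the lowest, median and highest of the U87 wells and 0 counts in every LNCaP well of the series, and U87 was at least 3720-fold higher than the 4 matched wells allowed. LGALS1, the lectin galectin-1, had 3819, 6654 and 10470 CPM in the same order with 0 counts in the 4 LNCaP wells, at least 2240-fold more. TGFBI, a secreted adhesion protein, had 1155, 1521 and 2597 CPM in U87 and S100A10, the partner of annexin A2, 1542, 1915 and 2352 CPM, each with 0 counts in those LNCaP wells. Of the transcription factors of this state, ZEB1, ZEB2 and SNAI2 were called at lower levels. ZEB1 had 17.38 to 49.61 CPM in U87 and 3 counts in LNCaP. SNAI1, TWIST1 and TWIST2, also on the list, had no plate mean above 6.336 CPM in U87, and TWIST1 had a mean of 2.704 CPM on LNCaP plate A1.

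Caveola genes were also higher in U87. Of 6 tested genes, CAV1 included, 5 were higher in U87, and PACSIN2, a membrane-bending protein that acts beyond caveolae, did not pass (-0.52, adjusted p = 0.15). The median log2 difference was 7.92, or 5.54 at the bounds of the 4 genes at 0 in LNCaP. PTRF, the coat protein cavin-1, had 8.113, 0, 0 and 0 CPM in LNCaP and 74.75, 278.8 and 386 CPM as the lowest, median and highest in U87. PRKCDBP, cavin-3, had 0 counts in LNCaP and 190.1, 317.8 and 444.4 CPM in U87.

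Collagen, laminin and matrix genes were higher in U87 in 26 of 31 tested cases from 49 in the tables, with 1 higher in LNCaP, 4 not called and a median log2 difference of 5.32, or 4.5 at the bounds of the 14 genes at 0 in LNCaP. COL1A1, the chain of fibrillar collagen I, had 78.42, 61.84, 91.78 and 97.02 CPM in LNCaP and 923.1, 1780 and 3439 CPM as the lowest, median and highest in U87 (4.95 ± 0.55, adjusted p = 3.98e-08). COL6A1, of microfibrillar collagen VI, was higher by 2.85 ± 0.4 (adjusted p = 1.53e-06). LOXL2, a collagen cross-linking oxidase, had 0 counts in LNCaP and 290.7, 481.7 and 560 CPM in U87. LAMA3, a laminin chain of epithelial basement membranes, went the other way with 59.49, 75.28, 61.18 and 97.02 CPM in LNCaP and at most 5.278 CPM in U87 (-5.19 ± 0.53, adjusted p = 8.07e-09).

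The plasminogen activators, matrix metalloproteinases and their inhibitors were higher in U87. All 12 tested genes of 20 were higher in U87, with a median log2 difference of 10.06, or 6.07 with the 10 genes at 0 in LNCaP at their bounds. TIMP1, an inhibitor of metalloproteinases (chrX:47441807-47446188, plus strand), had 2677, 4427 and 8107 CPM and MMP2, the gelatinase that cleaves collagen IV, 466.4, 1064 and 1735 CPM, both with 0 counts in LNCaP. All LNCaP wells together held 9 counts of TIMP1 and 3 of MMP2.

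TFPI2, a secreted inhibitor of plasmin and trypsin (chr7:93514708-93520065, minus strand), had 2750, 5755 and 10680 CPM as the lowest, median and highest in U87. It had 0 counts in every LNCaP well of the series, and U87 was at least 2000-fold above what the 4 matched wells allowed. Its promoter is shown because the gene is known to be silenced by methylation of CpG sites in several carcinomas, and no methylation was measured here. The 250 bases before the RefSeq start, at chr7:93520066-93520315 on the minus strand of GRCh37, have the CG dinucleotides in capitals.

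TFPI2: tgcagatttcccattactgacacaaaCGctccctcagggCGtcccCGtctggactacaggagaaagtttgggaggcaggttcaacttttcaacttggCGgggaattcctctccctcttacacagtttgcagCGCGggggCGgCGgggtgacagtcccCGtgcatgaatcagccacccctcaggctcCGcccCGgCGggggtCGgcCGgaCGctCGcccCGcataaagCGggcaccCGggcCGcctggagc

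This window held 20 CG dinucleotides and 64.4% G and C. Over the 35116 RefSeq windows the median was 11, with quartiles of 3 and 23, and the KLK3 window above held 1.

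Integrins, the receptors for this matrix, were higher in U87 in 7 of 7 tested genes of 20. ITGA5, the fibronectin receptor chain, had 32.45, 13.44, 122.4 and 53.9 CPM in LNCaP and 502.4, 905.1 and 1943 CPM as the lowest, median and highest in U87 (5.06 ± 0.61, adjusted p = 1.6e-07). ITGA3, of a laminin receptor, had at most 16.17 CPM in an LNCaP well and at least 278.6 CPM in a U87 well. The list of targets of the YAP coactivators also held YAP1, WWTR1, TEAD1 and TEAD4 themselves. Of its 26 genes 17 were tested, and 15 of these were higher in U87. The median log2 difference of the tested genes was 5.01, or 3.41 at the bounds of 7 genes. IGFBP3, an IGF-binding protein, had 16.23, 32.26, 0 and 32.34 CPM in LNCaP and 229.8, 807.6 and 1242 CPM in U87 (5.01 ± 0.53, adjusted p = 1.49e-08).

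Within that list, YAP1 did not pass the test (0.35, adjusted p = 0.503). Its partner WWTR1, also called TAZ, had 1 count in LNCaP and 33.98 to 87.61 CPM in U87 (5.67 ± 0.71, adjusted p = 2.69e-07). Of the best known YAP targets, CTGF was higher in U87 (adjusted p = 0.000615) and CYR61 did not pass (1.25, adjusted p = 0.219), both under 30 CPM in every well.

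Cytokines and growth factors were higher in U87 in 20 of 23 tested genes of 35, with a median log2 difference of 7.15, or 4.36 at the bounds of the 16 genes at 0 in LNCaP. IL1B, a pro-inflammatory cytokine, had 777.3, 2102 and 4059 CPM as the lowest, median and highest in U87 and 0 counts in LNCaP, at least 729-fold more. IL8, a neutrophil chemokine, had 167.3, 827.7 and 1540 CPM, and VEGFA, the endothelial growth factor, 903.8, 1033 and 1138 CPM in U87 against 24.34, 16.13, 30.59 and 80.85 CPM in LNCaP (5.03 ± 0.45, adjusted p = 9.4e-10). CSF3, the granulocyte colony-stimulating factor, had 767.9, 1397 and 3344 CPM in U87 and 0 counts in LNCaP, at least 543-fold more. GDF15, a stress-induced member of the TGF-beta family, was the exception, with 251.5, 247.3, 550.7 and 576.7 CPM in LNCaP and 24.14, 36.07 and 56.77 CPM in U87 (-3.11 ± 0.28, adjusted p = 1.22e-09).

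**Figure D3:**
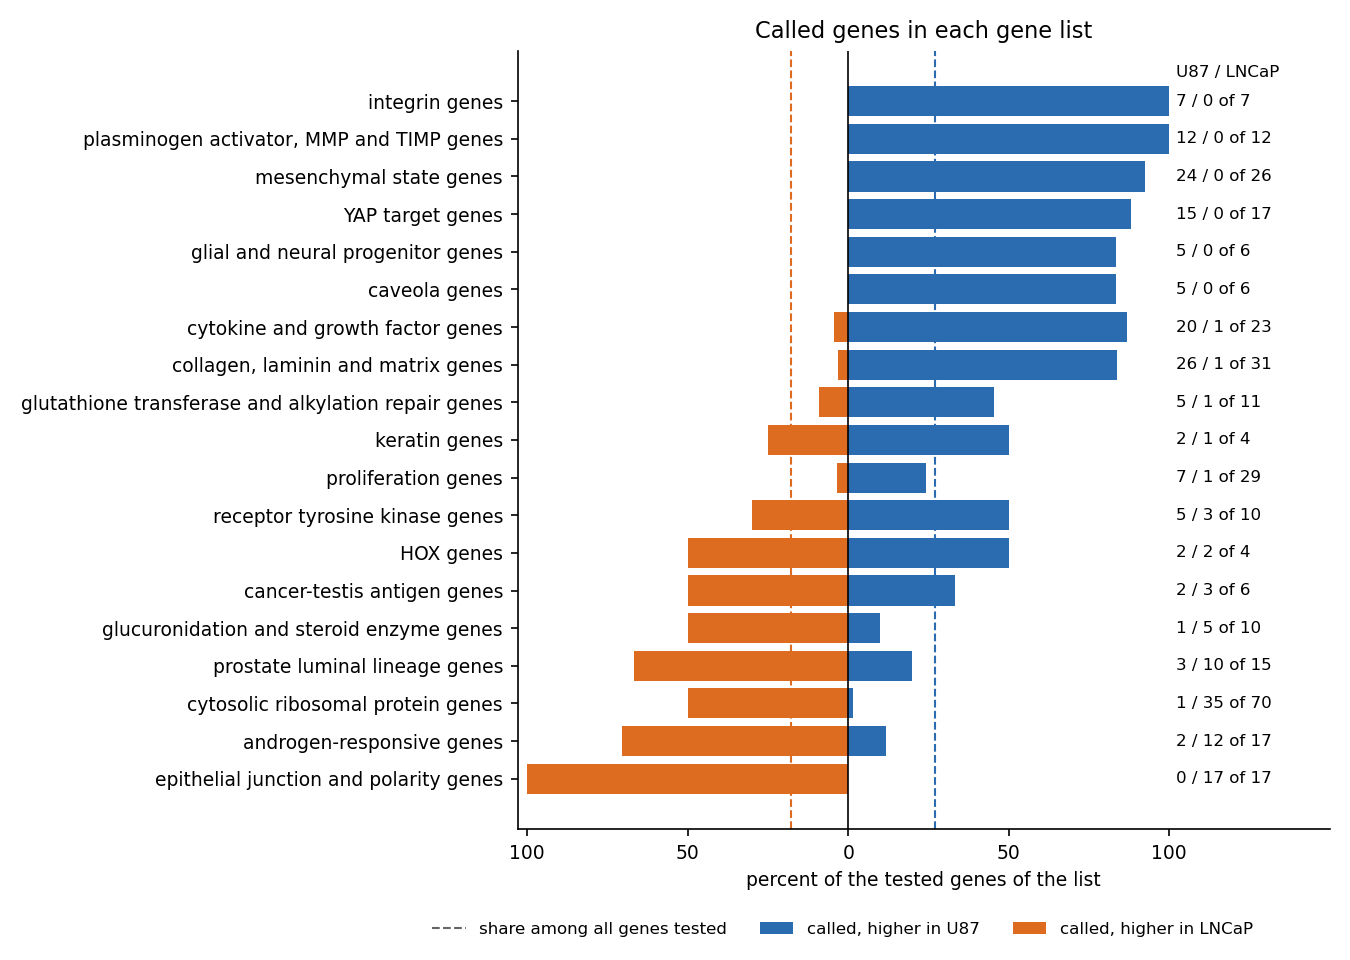
Share of the tested genes of each list that were called higher in U87 (blue, right) or higher in LNCaP (orange, left), in percent, with the counts in the right margin and dashed lines at the shares among all 7588 tested genes, 27.1% and 17.9%. Integrins and plasminogen genes stand at 7 of 7 and 12 of 12 in U87 and epithelial junction genes at 17 of 17 in LNCaP, while 21 of 29 proliferation genes and 34 of 70 ribosomal protein genes were not called.

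Receptor tyrosine kinases were called in both directions. Of 10 tested genes 5 were higher in U87 and 3 in LNCaP, beside 27.1% and 17.9% of all tested genes. AXL, a receptor of mesenchymal cells, had 194.1, 245.5 and 304.9 CPM as the lowest, median and highest in U87 and 0 counts in LNCaP, at least 80.8-fold more. EGFR (3.61 ± 0.41, adjusted p = 5.91e-08), the EGF receptor, and FGFR1, an FGF receptor with 2 counts in LNCaP and a median of 198.6 CPM in U87, were also higher in U87. ERBB3, a partner of ERBB2 in epithelia, had 108.2, 51.08, 61.18 and 150.9 CPM in LNCaP and at most 2.344 CPM in U87. ERBB2 (-4.46 ± 0.73, adjusted p = 1.55e-05) and DDR1 (-1.75 ± 0.43, adjusted p = 0.00145), a collagen receptor of epithelia, were also higher in LNCaP.

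Several defining markers of astrocytes and of the oligodendrocyte lineage were at or near 0 in U87, and others were low but counted. Among 30 glial and neural progenitor genes 6 were tested, and 5 of these were higher in U87, led by ENO2, the neuronal enolase, with 445.6, 619.1 and 1111 CPM as the lowest, median and highest in U87. The others were CHI3L1, a secreted protein of mesenchymal glioblastoma, TUBB3, SOX9 and NCAM1. GFAP, the intermediate filament that defines astrocytes, had 4 counts in 8 U87 wells with 6598034 counts in all, OLIG2 had 4, SOX2 3, S100B 1 and SOX10, AQP4 and ALDH1L1 0. NES, the progenitor filament nestin, had 4.456, 13.58 and 27.2 CPM as the lowest, median and highest in U87 and 0 counts in LNCaP, too low for the filter. CSPG4, the NG2 proteoglycan of oligodendrocyte precursors, was also below the filter, with 65 counts in the U87 wells (4.456, 10.95 and 16.99 CPM as the lowest, median and highest) and 0 in LNCaP. SLC1A3, the astrocyte glutamate transporter, had 63 counts in U87 (0, 8.553 and 18.75 CPM) and 2 in LNCaP.

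Markers of blood and endothelial cells were low in both lines, with 11 of 12 genes too low to test, among them PTPRC, CD3E and CDH5 at 0 in the 12 wells. CD68, a lysosomal protein also present outside macrophages, was higher in U87 (2.53 ± 0.48, adjusted p = 0.000103), and its wells overlapped.

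At the short arm of chromosome 9, CDKN2A (chr9:21967751-21995300, minus strand), which encodes the cell cycle inhibitor p16, had 238, 258.1, 397.7 and 253.3 CPM in LNCaP and 0 counts in the 8 untreated and the 8 DMSO U87 wells. LNCaP was at least 631-fold higher. Its neighbour MTAP (chr9:21802635-21937650, plus strand), an enzyme of methionine salvage, also had 0 counts in these 16 U87 wells and 2, 9, 0 and 0 counts in the LNCaP wells, which is at least 16.3-fold. MTAP was too low for the filter, and without it the log2 difference was -5.45 (adjusted p = 1.95e-05), and all LNCaP wells together held 1532 counts of it. The U87 wells as a group could hold up to 0.455 CPM of either gene unseen.

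Single detoxification genes were higher in 1 line or the other. GSTP1 (chr11:67351213-67354127, plus strand), a glutathione transferase known to be silenced in prostate carcinoma, had a median of 207 CPM and a highest level of 264.8 CPM in the U87 wells, 0 counts in the 4 LNCaP wells, and 1 count in all LNCaP wells of the series. U87 was at least 62.6-fold higher. MGST2, a membrane-bound member, went the other way with 313.7, 586.1, 336.5 and 506.7 CPM in LNCaP and at most 7.389 CPM in U87 (-7.86 ± 0.51, adjusted p = 2.6e-12). ALDH1A3, an aldehyde dehydrogenase of retinoate synthesis, had 980.1, 1591 and 2513 CPM in U87 and 35.16 and 29.57 CPM on plate A1 and 64.68 CPM in well 53 of plate A2 (5.2 ± 0.49, adjusted p = 2.22e-09). Its highest LNCaP level was in the shallow well 52 of plate A2, with 5 counts, and the lines did not overlap. MGMT, which repairs alkylated guanine, had 1, 3, 1 and 7 counts in the LNCaP wells and 0 in the untreated and the DMSO U87 wells, at least 43.5-fold less. Of 11 tested genes of this list, 5 were higher in U87 and 1 in LNCaP, beside 27.1% and 17.9% of all tested genes. The median log2 difference was 0.37, close to the 0.233 over all genes.

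Glucuronidation, which inactivates androgens, gave a further LNCaP contrast. UGT2B17 (chr4:69402891-69442131, minus strand) had 1260, 1261, 1163 and 1256 CPM in LNCaP and 0 counts in U87, at least 2720-fold less. UGT2B11 and UGT2B15, of the same family, were at 0 in U87 too. The UGT2B genes are similar in sequence, so how reads were divided among them, UGT2B17 included, is uncertain. HSD11B2, which inactivates cortisol, had 91.95, 69.9, 244.7 and 167.1 CPM in LNCaP and 3 counts in U87. Of 10 tested genes 5 were higher in LNCaP and 1, AKR1C3, which makes testosterone from androstenedione, was higher in U87 (4.84 ± 0.93, adjusted p = 0.000113), with overlapping wells owing to 1 LNCaP count in the shallow one.

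SELENBP1, a selenium-binding methanethiol oxidase, and SPON2, a secreted matrix protein, were among the 10 genes with the largest differences toward LNCaP without belonging to any list. SELENBP1 had 1274, 1116, 2141 and 1741 CPM in LNCaP and 1 count in U87, a ratio of 8790 (interval 1570 to 347000). SPON2 had 402.9, 395.2, 1530 and 894.7 CPM and 2 counts in U87, a ratio of 1760 (485 to 14600). PRAC, a small nuclear protein of prostate and colon, had 1093, 892.6, 458.9 and 415 CPM and 0 counts in U87. In all, 30 genes (0.127% of the 23710 symbols) had 0 counts in the 8 U87 wells and a mean of at least 50 CPM in LNCaP. The converse, 0 counts in the 4 LNCaP wells and a mean of at least 50 CPM in U87, held for 0.81% of the symbols. The depths differ, since a count of 0 allowed up to 3.13 CPM over the LNCaP wells and 0.455 CPM over the U87 wells, and 15 of the genes at 0 in the 4 LNCaP wells had 0 counts in every LNCaP well of the series.

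HOX genes, which record body position, were mostly below the filter, with 4 of 39 tested. HOXB13 and HOXC6 (-1.72 ± 0.32, adjusted p = 7.27e-05) were higher in LNCaP, and HOXB2 and HOXD8, at 0 in LNCaP, were higher in U87. HOXB2 lost its call with plate A2 alone (adjusted p = 0.148). Among all tested genes 17.9% were higher in LNCaP and 27.1% in U87. Of 6 tested cancer-testis antigens 3 were higher in LNCaP, 2 in U87 and 1 was not called. CSAG1, one of them, had 448.9, 416.7, 336.5 and 436.6 CPM in LNCaP and 1.056, 2.88 and 7.948 CPM as the lowest, median and highest in U87 (-6.69 ± 0.37, adjusted p = 1.43e-13). PRAME and MAGEA6 were also higher in LNCaP, and the ubiquitous relatives MAGED1 (0.87, adjusted p = 0.0183) and MAGED2 (1.22, adjusted p = 0.0146) were higher in U87 with overlapping wells, losing their calls in 8 and 7 alternative settings. Without well 53 of plate A1, MAGED1 had an adjusted p of 0.058 and MAGED2 of 0.0888, and without well 52 MAGED2 had 0.0737. MAGEA copies are near-identical, and their split of reads is uncertain.

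Of 29 tested proliferation genes, 7 were higher in U87, 1 in LNCaP and 21 did not pass, beside 27.1% and 17.9% of all tested genes called in these directions and 45% called in all. They had a median log2 difference of 0.28 beside 0.233 over all genes. AURKA, a mitotic kinase, had 62.2, 75.28, 91.78 and 43.12 CPM in LNCaP and 93.58, 203.3 and 284.7 CPM in U87 (1.85 ± 0.34, adjusted p = 8.2e-05). MCM7, of the replicative helicase, was higher in LNCaP (-0.99 ± 0.28, adjusted p = 0.00451) and lost its call in 4 alternative settings. CDKN1A, the p21 inhibitor, did not pass (0.61, adjusted p = 0.127).

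Cytosolic ribosomal protein genes gave a result that depended on the LNCaP plate. Of 70 tested genes, 35 were higher in LNCaP and 1, RPS19, was higher in U87, with a median log2 difference of -0.86. With plate A1 alone 44 were higher in LNCaP and the median was -1.19, and with plate A2 alone 8 were higher in LNCaP, 3 in U87 and the median was 0.01. Without well 52 of plate A1, 22 genes were called higher in LNCaP, and with the counts summed per plate 19 were. Their summed level was 208000 and 204000 CPM on plate A1, 142000 and 135000 CPM on plate A2 and 68400 to 82400 CPM in U87. RPS24 had 11040, 10540, 9606 and 10120 CPM in LNCaP against 1572, 2112 and 3279 CPM as the lowest, median and highest in U87 (-1.95 ± 0.33, adjusted p = 2.71e-05). These genes have many near-identical pseudogene copies, so their counts are uncertain.

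The LNCaP plates, which carry the same lysates, were compared in the matched wells first. Of 4071 tested genes, 23 were higher on plate A2 (0.565%) and 81 on plate A1 (1.99%), with 738 at an unadjusted p under 0.05. With the well number as a block, the paired fit, 332 genes were called, and leaving out single wells gave from 40 to 224 calls. With all wells of at least 100000 counts, 4387 of 5370 genes were called. KLK3 was higher on plate A2 by a log2 difference of 1.62 (adjusted p = 0.00301) and kept its call without each of the 4 wells. Over the wells with at least 100000 counts the plates overlapped at the ends of their ranges, with 368 to 879 CPM over the 96 wells of plate A1 and 806 to 1860 CPM over 93 wells of plate A2. SPON2 (1.3, adjusted p = 0.0385) was higher on plate A2 and PRAC (-1.43, adjusted p = 0.0172) on plate A1, and each kept its call without 2 of the 4 wells. Among the ribosomal protein genes 23 of 69 were higher on plate A1.

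The U87 plates PS4 and PS1 were compared in the same way. Of 7310 tested genes, 25 were higher on PS4 (0.342%) and 1.56% were higher on PS1, with 1324 at an unadjusted p under 0.05. Without single wells of PS1A or PS4B, 46 to 64 genes in all were called. Of 12 tested plasminogen, MMP and TIMP genes 3 were higher on PS1, and of 25 tested cytokine genes 4. IL1B had 2965, 2344, 4059 and 3652 CPM in the wells of PS1A and PS1B and 1861, 1707, 867 and 777.3 CPM in those of PS4A and PS4B, so the plates did not overlap. It differed by -1.34 (adjusted p = 0.0251) and IL8 by -1.72 (adjusted p = 0.0215), also without overlap. IL1B kept its call without 3 of the 8 wells and IL8 without 4. SERPINB2, the inhibitor PAI-2 (-3.02, adjusted p = 0.000856), and LIF, a cytokine of the IL-6 family (-2.71, adjusted p = 0.00235), kept theirs without each well. KRT5 stood out in the other direction, with 1.699, 1.485, 1.172 and 0 CPM on PS1 and 25.77, 21.11, 23.9 and 22.21 CPM on PS4 (4.39, adjusted p = 0.00447), and kept its call without each well.

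**Figure D4:**
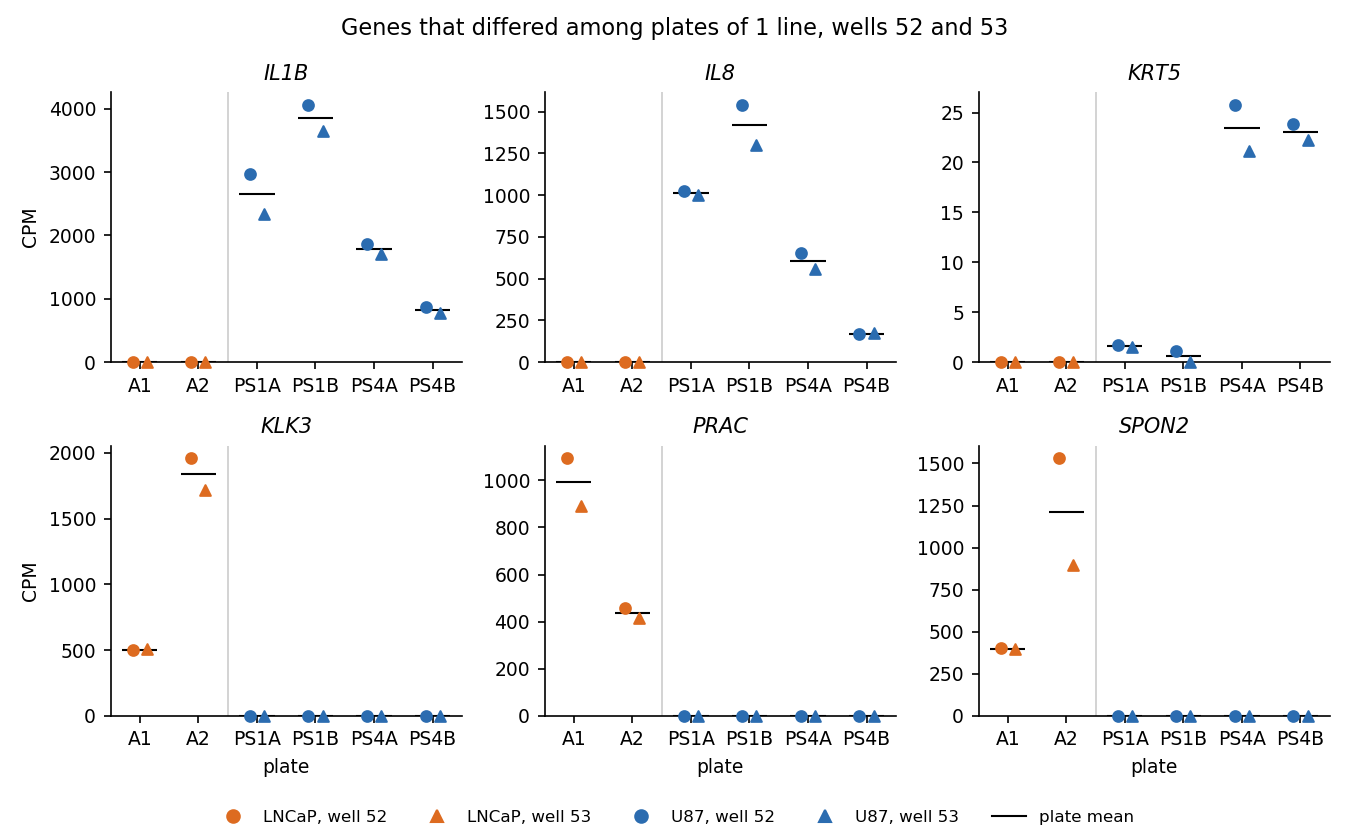
CPM (linear y axes from 0) of 6 genes that differed between plates of 1 line, in each of the 12 wells, with LNCaP in orange, U87 in blue, circles for well 52, triangles for well 53 and a bar at the plate mean. IL1B and IL8 were lower on the PS4 plates, KRT5 was above 20 CPM on the PS4 plates alone, and KLK3 and SPON2 on one side and PRAC on the other changed in opposite directions between the LNCaP plates.

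The contrast of the lines was repeated in wells 40 and 41, where the U87 cells carried DMSO and no well was shared with the first comparison, although the plates were. Here 3372 of 7028 genes passed the test, 2013 higher in U87 (28.6%) and 1359 higher in LNCaP (19.3%). Of the genes called in wells 52 and 53, 2610 were called in the same direction in wells 40 and 41, which is 76.5% of the first list and 77.4% of the second, and 0 were called in opposite directions. EGFR differed there by a log2 difference of 3.76 beside 3.61 in wells 52 and 53, GDF15 by -3.61 beside -3.11 and VIM by 9.49 beside 11.05. KLK3, CAV1 and S100A6 were again called, and KLK4 had 2 counts in the DMSO wells of U87. KRT5, KRT7, ACPP and DDR1 were too low to be tested there, and MAGED1 did not pass (0.57, adjusted p = 0.0845).

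**Figure D5:**
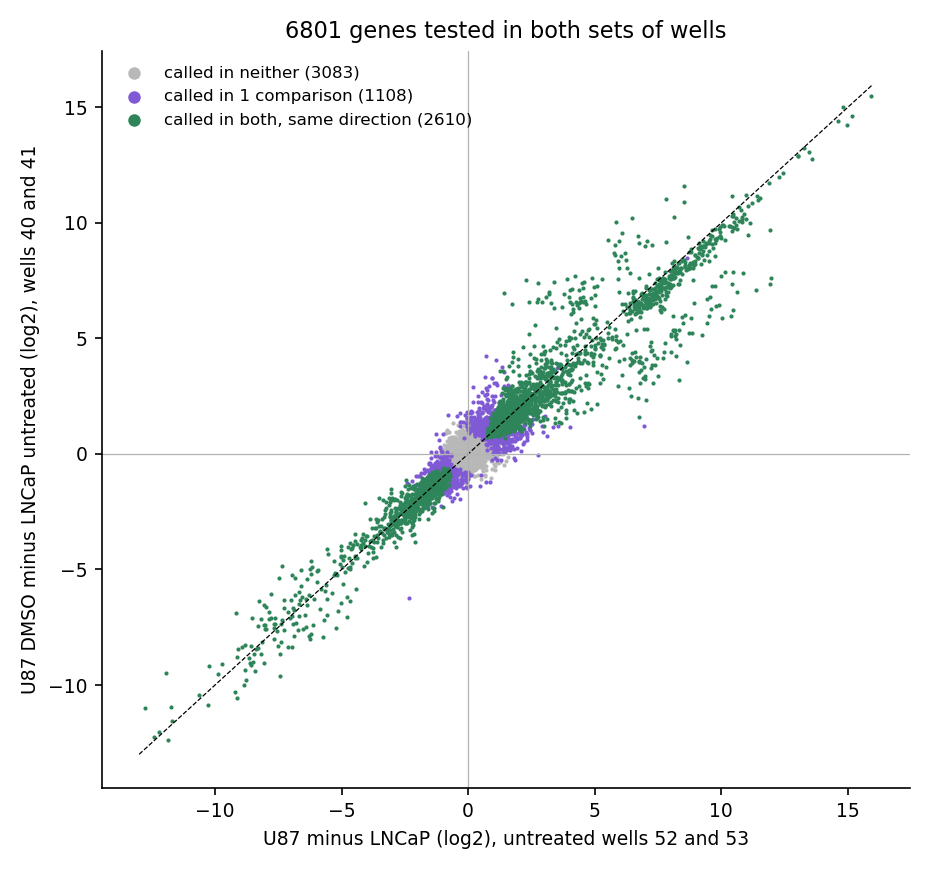
Log2 difference between the lines in the untreated wells 52 and 53 (x axis) and in wells 40 and 41, with DMSO in U87 (y axis), for the 6801 genes tested in both. The 2610 genes called in both in the same direction are green, the 1108 called in 1 comparison purple and the 3083 called in neither grey, and the dashed line marks equal differences.

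The other LNCaP wells with at least 100000 counts had levels around those of the 4 matched wells. KLK3 ranged from 368 to 1860 CPM with a median of 820, KLK4 from 756 to 2400 with a median of 1440, UGT2B17 from 670 to 1640 with a median of 1190 and CDKN2A from 76.8 to 484 with a median of 257. VIM reached at most 11.3 CPM in any of them, CAV1 1.8 CPM, TIMP1 4.33 CPM and LGALS1 13.7 CPM. None of these 4 highest values came near the lowest U87 well of its gene.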

How the data were processed

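The deposited tables hold raw counts of reads per gene symbol and well. The authors assigned reads to wells by barcode, aligned them with bwa-mem to the UCSC known-gene transcriptome of hg19 (the labels list BWA with no version) and counted uniquely mapped sense reads. Columns were mapped by plate and well labels. The 92 ERCC spike-ins, at most 0.1% of the counts of a compared well, were left out. CPM is the count over the well's total of 23710 symbols. Depth ran from 32688 to 1035594 counts per compared well.

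Lines and plates were compared with edgeR 4.0.16 (R 4.3.3, limma 3.58.1), by glmQLFit and glmQLFTest with robust dispersion, TMM and filterByExpr at its defaults, with Benjamini-Hochberg adjustment over all tested genes and a threshold of 0.05. The fit was tested on simulated counts with independent wells and no plate or lysate effect, so that test does not cover the shared plates and lysates of these wells. DESeq2 1.42.0, other scalings, filters, sets of wells and the removal of each well were alternatives. Folds against a line at 0 set the unweighted mean CPM of the other line's wells against 3 counts over the wells at 0. They are therefore bounds on that mean and not on the summed counts. Ratios with 1 to 3 counts use summed counts and have exact 95% intervals for counting error.

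Well numbers were checked as pairs by correlating the difference between wells 52 and 53 across plates: 8 pairs of a U87 and an LNCaP plate gave 0.112 to 0.226, 6 pairs of U87 plates 0.201 to 0.263, and A1 with A2 0.116. These values are low, and A1 with A2, which carry the same lysates, lay within the range of plates of different lines. The correlations therefore cannot decide whether the numbers pair the wells. The fit with the well number as a block was run as an alternative.

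Named genes were the 4 markers, the 10 with the largest called, non-overlapping difference each way at 100 CPM or more, in each list the 3 called members with the highest mean CPM and up to 3 called against its direction, 4 genes chosen by locus (MTAP, CDKN2A, GSTP1, MGMT), and the 5 highest genes at 0 in the other line with at least 50 CPM. Other list members named in the text were chosen after their values were seen. So were the alternatives for plate differences of single genes and for the genes of the closing observations. The comparison, lists and markers were chosen with earlier results of these data known. Gene positions are from GENCODE v44lift37 (GRCh37), where 87 of 87 named genes matched, 5 by an older symbol. Promoters are from RefSeq (GRCh38.p14 table), placed on GRCh37 by exact match. Some genes that the rule names, and lists that need them, are not reported here.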

Additional observations from a re-analysis of the deposited data

Results flagged for a closer look

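Taking the wells of 1 line at a time for each named gene, 14 sets of wells held 1 whose distance from the nearest other well was large for the range of its group (Dixon's criterion). These are 7.95% of the sets examined, where chance gives about 1 in 20. In 7 of the 14 sets every other well was at 0, so that the distance equals the range whatever the value. In LNCaP, 3 of the wells were the shallow well 52 of plate A2, where AKR1C3 had 30.59 CPM, CDKN2A 397.7 CPM and UGT2B17 1163 CPM, the AKR1C3 value being 1 count. In well 53 of plate A2, CHI3L1 had 10.78 CPM and ITGA3 16.17 CPM. On plate A1, PTRF had 8.113 CPM and VIM 2.704 CPM in well 52, and ITGA2 had 2.689 CPM in well 53.

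In U87, ENO2 reached 1111 CPM in well 52 of PS4B, with the next well at 738.6 CPM. In well 53 of PS4A, ERBB2 had 6.333 CPM and MGST2 7.389 CPM. On PS1B, HOXB13 had 3.515 CPM in well 52, where all its U87 counts lay, and KRT7 had 4.541 CPM in well 53, below the next well at 22.26 CPM. SELENBP1 had 0.9656 CPM in well 53 of PS4B, which is its only U87 count. The contrast of the lines kept its direction for each of these genes when single wells were left out.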

How the results depend on the processing

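The counts were recomputed under each alternative. For U87 untreated against LNCaP untreated, the calls were 3607 with DESeq2 (2463 higher in U87, 1144 in LNCaP), 4970 without the filter (2157 of them higher in LNCaP), 1994 in a test against a 2-fold difference (1343 and 651), 5828 with all LNCaP wells of at least 100000 counts (2847 higher in LNCaP), 3390 with plate A1 alone and 2341 with plate A2 alone (712 higher in LNCaP). Leaving out single wells gave 3052 to 3583 calls, 1895 to 2138 of them higher in U87 and 1149 to 1445 in LNCaP, and 3583 without the shallow well. The replicate block, by well number, gave 3390 calls, and among the named genes it changed the call of KRT5 only. Across the settings, 1 gene was called in opposite directions, C12orf45 with plate A2 alone (2.83, adjusted p = 0.0482, against -1.13).

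For wells 40 and 41, dropping the filter gave 5099 calls (2133 higher in LNCaP), and single wells 3035 to 3389, 1727 to 1990 and 1198 to 1450. The share of tested genes called between PS4 and PS1 was 1.9%, and 5.01% with DESeq2, 2.56% without the filter and 0.599% to 1.7% without single wells (0.747% and 0.825% without wells 52 and 53 of PS1A, 0.691% and 0.599% without those of PS4B). Between plates A2 and A1 it was 2.55%, and 0.983% with DESeq2, 1.5% without the filter, 8.16% with the block, 81.7% with all deep wells and 0.76% to 4.05% without single wells (1.06% and 1.47% without wells 52 and 53 of plate A1, 4.05% and 0.76% without those of plate A2). The causes were not tested.

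Among the values for named genes, 2190 kept direction and side of the threshold, 47 lost the call, 9 gained it and 0 reversed. TMPRSS2, MTAP and MGMT were too low for the filter in the main comparison. TMPRSS2 passed it without the shallow well (-7.51, adjusted p = 2.27e-06) and with plate A1 alone (-7.28, adjusted p = 7.52e-05), and MTAP and MGMT did not.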

Other observations

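The following genes were chosen after their values were seen. Metallothioneins, small metal-binding proteins, differed in both directions. MT2A, the most counted symbol of the 12 wells, had 1980, 2480, 4500 and 5080 CPM in LNCaP and 34900, 68800 and 116000 CPM as the lowest, median and highest in U87 (log2 difference 4.79 ± 0.59, edgeR, adjusted p = 1.72e-07). MT1E had 398 to 1710 CPM in U87 and 0 counts in every LNCaP well of the series. MT1G went the other way, with 1210, 874, 1990 and 1740 CPM in LNCaP and 79.2 to 279 CPM in U87 (-2.96 ± 0.35, adjusted p = 1.22e-07), and the directions held with RLE, library totals and DESeq2, with either LNCaP plate alone and without the shallow well. The MT1 genes are near-identical, so how reads were divided among them is uncertain.

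HLA-B was higher in U87 by a log2 difference of 5.19 ± 0.53 (adjusted p = 8.48e-09) and B2M, the light chain of these antigens, by 3.03 ± 0.42 (adjusted p = 1.57e-06), each with no overlap between the lines. HLA-C (1.08, adjusted p = 0.0306) overlapped and kept its call in 4 of 6 other settings.

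LDHA, which makes lactate, had at most 373 CPM in an LNCaP well and 1530 to 5870 CPM in U87 (3.54 ± 0.43, adjusted p = 1.58e-07). SLC2A1, the glucose transporter, differed by 4.04 (adjusted p = 5.16e-08) and CA12, a carbonic anhydrase, by 4.26 (adjusted p = 9.04e-10). PKM, a pyruvate kinase, differed by 1.9 (adjusted p = 0.00332), with overlapping wells, and was called in 5 of 6 other settings. CA9, the hypoxia marker of the same family, ranged from 2.17 to 270 CPM over the U87 wells and did not pass (adjusted p = 0.157).

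Within the S100 and annexin families the lines differed member by member. S100A6, S100A10 and S100A16 were at or near 0 in LNCaP, S100A11 did not pass (0.65, adjusted p = 0.255) and S100P was higher in LNCaP (-6.61 ± 0.52, adjusted p = 7.46e-11). ANXA1 and ANXA2, with 0 counts and 1 count in LNCaP, were higher in U87, and ANXA11 was higher in LNCaP (-1.1 ± 0.33, adjusted p = 0.00771, called in 4 of 6 other settings).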
